A study of Rattus norvegicus with 60 samples.

Results

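Cardiac and skeletal muscle genes were followed in lung tissue of rats that had breathed multi-walled carbon nanotubes (MWCNT) or filtered air. The 10 genes were taken by symbol from the count table. They were the cardiac sarcomere genes Myh6, Myl7, Tnnt2, Tnni3 and Actc1, the atrial hormone gene Nppa and the oxygen-binding protein of striated muscle Mb. Ckm, Tnnt3 and Acta1 completed them and were listed as skeletal, though Ckm is a gene of striated muscle in general. The members are 10 of 30045 rows in the table, and 9 of them were among the 15995 genes with enough reads to be tested. Nppa was not.

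Striated muscle contracts by sliding myosin heads along actin filaments, and troponin on the actin filament switches the contact on when calcium rises. Heart and skeletal muscle use different members of each protein family, so the members present in a tissue tell the muscle types apart. In rats and mice, cardiac muscle cells line the pulmonary veins and reach from the left atrium into the lung, whereas skeletal fibres belong to the chest wall and diaphragm around the lung.

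The animals were male Fischer 344 rats of about 3 months with no genetic modification. Exposure was in a whole-body chamber for 6 hours on each of 3 days, and a piece of lung was taken 1 day after the last exposure. Cumulative MWCNT doses were 11.25, 22.5, 45, 90 and 180 mg/m3, and each dose was run with its own air rats. The runs are called sets 011, 022, 045, 090 and 180. The groups analysed were MWCNT_011 with 5 rats and air_011 with 6, MWCNT_022 with 6 and air_022 with 6, MWCNT_045 with 6 and air_045 with 3, MWCNT_090 with 4 and air_090 with 6, and MWCNT_180 with 5 and air_180 with 6. Dose and run differ together, so a difference between doses cannot be told apart from a difference between runs.

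Of 60 libraries, 53 were analysed and the 7 that the labels mark as outliers were left out. The total count of a library ran from 8099154 to 16176867, with a median of 11221335, and levels are given as CPM, a gene's counts scaled to a common library total. Lung markers summed to between 24700 and 40700 CPM in the 53 libraries. Liver genes made up 0.0122% to 0.0371% of counts in them. In 3 of the left-out libraries, air_045 replicate 5 and MWCNT_090 replicates 5 and 6, liver genes summed to at least 179000 CPM and lung markers to at most 363 CPM. CPM is not scaled for gene length, so levels are compared between rats and never between genes. In pieces of bulk tissue, fewer cells of a type and less RNA per cell cannot be told apart.

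The upstream sequences of 3 genes are shown because these genes differed in the results. Acta1 rose with exposure in sets 090 and 180, Actc1 is its cardiac counterpart, and Mb varied with Actc1 from rat to rat. Each sequence is the 250 bases before the gene's start in the RefSeq table for the rat build GRCr8, read 5′ to 3′ on the gene's strand, at chr19:68784195-68784444 (minus strand) for Acta1, chr3:121271828-121272077 (minus strand) for Actc1 and chr7:110647743-110647992 (minus strand) for Mb. Capitals mark the CArG box, the MEF2 site, the M-CAT motif CATTCC and TATAAA wherever they occur.
Acta1: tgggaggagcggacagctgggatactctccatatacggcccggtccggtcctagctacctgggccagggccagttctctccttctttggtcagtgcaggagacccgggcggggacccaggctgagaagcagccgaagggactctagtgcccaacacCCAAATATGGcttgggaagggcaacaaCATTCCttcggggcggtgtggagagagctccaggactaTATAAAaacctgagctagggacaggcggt
Actc1: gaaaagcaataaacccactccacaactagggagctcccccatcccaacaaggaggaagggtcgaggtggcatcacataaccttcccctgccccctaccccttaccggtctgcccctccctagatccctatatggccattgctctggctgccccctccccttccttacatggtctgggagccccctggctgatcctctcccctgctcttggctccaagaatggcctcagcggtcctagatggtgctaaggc
Mb: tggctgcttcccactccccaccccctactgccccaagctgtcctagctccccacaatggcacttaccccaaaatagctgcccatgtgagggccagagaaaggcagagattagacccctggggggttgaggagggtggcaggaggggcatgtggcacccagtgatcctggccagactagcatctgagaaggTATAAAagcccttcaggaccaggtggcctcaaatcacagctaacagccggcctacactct

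The table gave a window for 8 of the 10 genes by a single entry, and 5 of these windows (Acta1, Actc1, Tnni3, Mb and Nppa) began at the annotated gene start. Motifs were searched on both strands of these 5. The CArG box, the site of serum response factor, was found in Acta1 alone, from base -94 to base -85 before the start, and 1.5% of all 33469 windows hold it. CATTCC was also found in Acta1 alone, and 12.1% of all windows hold it. TATAAA was found in Acta1, Mb and Nppa, against 12.9% of all windows. The E-box CANNTG was found in Acta1, Mb and Nppa, against 65.5% of all windows, and GATA in Acta1, Tnni3 and Nppa, against 55.9%. The MEF2 site was in none of the 5 and in 2.96% of all windows. No match overlapped a match to another motif on the same gene, and each E-box or CArG match was found on both strands. These are matches of letters in a fixed window and not sites shown to be bound.

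From rat to rat, the cardiac genes were among the most variable genes in the lung. Myh6, the fast cardiac myosin heavy chain, ran from 0.0897 CPM in air_022 replicate 4 to 143 CPM in air_180 replicate 2. Its SD within groups was 2.03 on the log2(CPM + 0.1) scale, larger than in 99.9% of genes tested, where the median SD was 0.16. Myl7, the atrial myosin regulatory light chain, had an SD of 2.14 and ran from 0 to 72.2 CPM.

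By set, Myh6 stood at 92.8, 7.29, 0.573, 65.5 and 4.40 CPM in the 5 rats of MWCNT_011, and air_011 had a lowest value of 17.2, a median of 61.6 and a highest of 127 CPM. In MWCNT_022 the lowest, median and highest were 6.07, 16.7 and 27.3 CPM, and in air_022 they were 0.0897, 24.7 and 118 CPM. In MWCNT_045 they were 17.8, 35.7 and 82.5 CPM, and the 3 rats of air_045 had 15.0, 26.9 and 56.3 CPM. The exposed and air rats overlapped in each of these sets. MWCNT_090 rats had 71.6, 10.4, 28.9 and 21.4 CPM, and air_090 ran from 15.4 through a median of 60.5 to 100 CPM. MWCNT_180 rats had 41.1, 10.4, 49.8, 6.59 and 37.2 CPM, and air_180 ran from 0.814 through a median of 27.5 to 143 CPM. Here too the groups overlapped, and the highest Myh6 values of sets 180 and 022 were in air rats.

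The other cardiac sarcomere genes spread less widely. Tnnt2, the cardiac troponin T that binds tropomyosin, had an SD of 1.4 and ran from 0.327 to 24.4 CPM. Tnni3, the cardiac inhibitory troponin, had an SD of 0.79 and ran from 3.12 to 27.1 CPM. Actc1, the cardiac sarcomeric actin, had an SD of 0.78 and ran from 9.24 to 78.9 CPM. All of them remained above the 97% mark of the spread over genes tested.

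Mb, the myoglobin gene, had an SD of 1.67 and Ckm, the muscle creatine kinase, an SD of 1.58. Both had few reads, with medians of 15 and 13 counts per library, so that counting error adds to their spread. Mb had 0 counts in 5 rats and Ckm in 4. Tnnt3, the fast skeletal troponin T, was the steadiest of the 9, with an SD of 0.21 and a range of 6.44 to 15.9 CPM, at percentile 62.7 of the genes tested. Acta1, the skeletal sarcomeric actin, had an SD of 0.49 with only 2 to 17 counts per library.

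**Figure D1:**
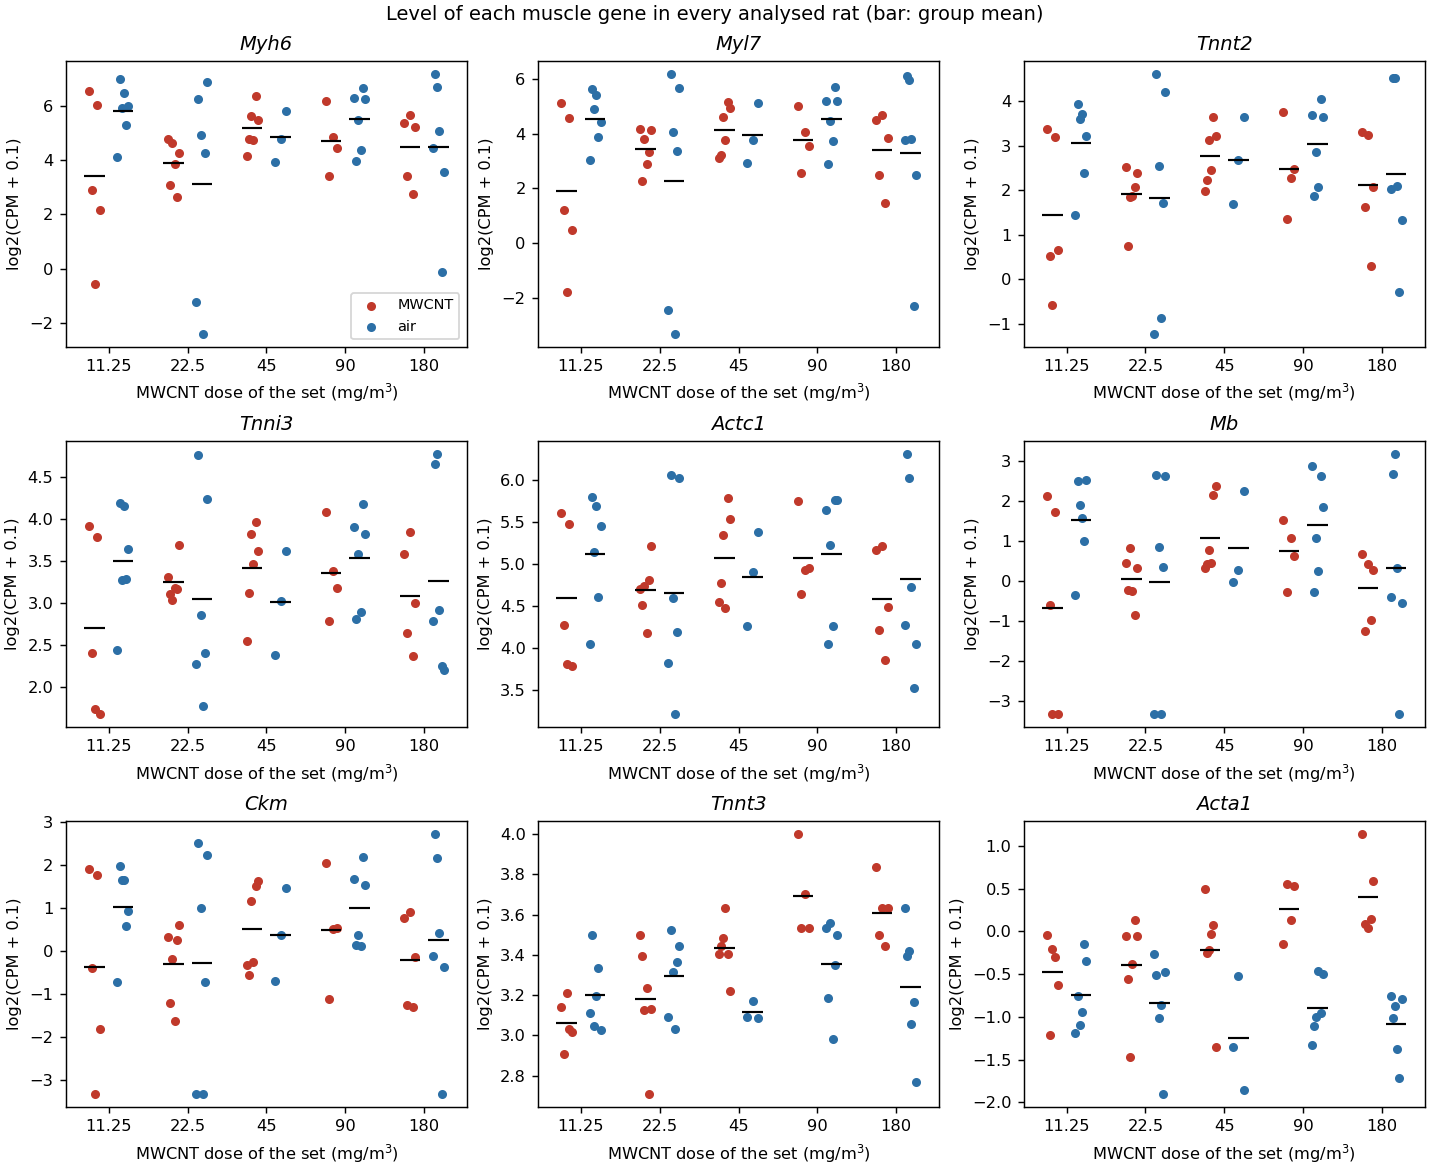
Level of 9 muscle genes in each of the 53 rats, as log2(CPM + 0.1) on the vertical axis, by MWCNT dose of the set in mg/m3 on the horizontal axis. Red points are MWCNT rats, blue points the air rats of the same set, and black bars group means. Myh6 and Myl7 each have 4 rats far below the rest, and Acta1 is higher in every MWCNT rat than in every air rat at 90 and 180 mg/m3.

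Nppa, which encodes atrial natriuretic peptide, had 0 counts in all 53 libraries. A count of 0 allows up to 3 counts, or 0.00491 CPM over the 53 libraries together and 0.185 to 0.37 CPM in a single library. Nppb, the related B-type peptide, also had 0 counts. These limits cover counting error only, since the libraries carry no molecular identifiers. They do not cover reads lost in annotation or counting: Col1a2, named after its values were seen, had 9 counts in all where its partner chain Col1a1 had 319099. Over all 60 libraries Nppa had 1 count, in air_045 replicate 3, which was left out of the analysis. Whether Nppa reads were lost in annotation or counting was not tested.

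In 4 rats Myh6 was under 1 CPM. They were MWCNT_011 replicate 4, air_022 replicates 1 and 4, and air_180 replicate 5. Myh6 had 6, 4, 1 and 8 counts in them in that order, and Myl7 had 2, 1, 0 and 1. Mb and Ckm had 0 counts in each of the 4. Tnni3 still had 3.25 to 4.74 CPM, Actc1 9.24 to 14.1 CPM and Tnnt3 8.07 to 9.17 CPM. These rats lacked reads of some striated muscle genes and not of others. The 4 rats came from 3 sets and from MWCNT and air groups, and without them the SD of Myh6 was 1.23.

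A group of 7 members moved together from rat to rat, namely Myh6, Myl7, Tnnt2, Tnni3, Actc1, Mb and Ckm. This grouping was drawn after the correlations had been seen. After group means were removed, the 21 pairs among them had Pearson r between 0.84 and 0.99 and Spearman rho between 0.86 and 0.97 over 53 rats. Each had a permutation p of 1e-05, the smallest that 100000 permutations can give, and an adjusted p of 1.7e-05 over the 36 pairs of the 9 genes. Ckm, a striated muscle gene listed here as skeletal, had r = 0.94 with Myh6 and 0.96 with Myl7. Without the 2 rats farthest from the median of the first gene of a pair the 21 values of r were 0.84 to 0.98. Within single sets they were 0.74 to 0.99, among air rats alone 0.81 to 0.99, and without the 4 rats of low Myh6 0.87 to 0.97.

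Tnnt3 and Acta1 did not follow the group of 7 in this way. Tnnt3 had r of 0.33 to 0.47 with the 7 genes and rho of 0.37 to 0.55, with adjusted permutation p between 0.0016 and 0.042. Among air rats alone its r was higher, 0.50 to 0.60, and without the 4 rats of low Myh6 it was 0.29 to 0.50. That relation did not hold within every set: r of Tnnt3 with Myh6 was 0.03 in set 011, 0.64 in set 022, -0.22 in set 045, 0.79 in set 090 and 0.44 in set 180. Acta1 had r of -0.01 to 0.13 with the 7 genes and rho of -0.03 to 0.13, and no pair passed, with adjusted permutation p of 0.48 or more. Its r among air rats alone was 0.05 to 0.19. Acta1 and Tnnt3 had r = 0.09 with each other, with an adjusted permutation p of 0.63 and rho of 0.14. Since Acta1 rested on a median of 7 counts per library, counting error limits how high its correlations could be.

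**Figure D2:**
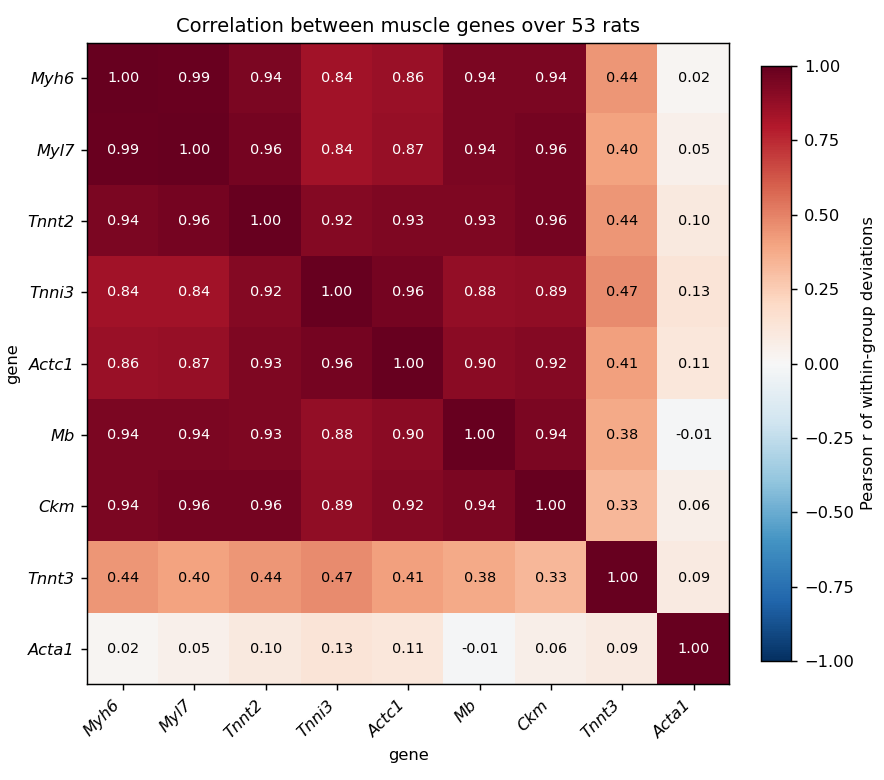
Pearson r between muscle genes over 53 rats, from deviations of log2(CPM + 0.1) from the group mean, with genes on both axes and r as colour and number. The 7 genes at the upper left have r of 0.84 or more with each other, and Tnnt3 and Acta1 have r of 0.47 or less with all of them.

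**Figure D3:**
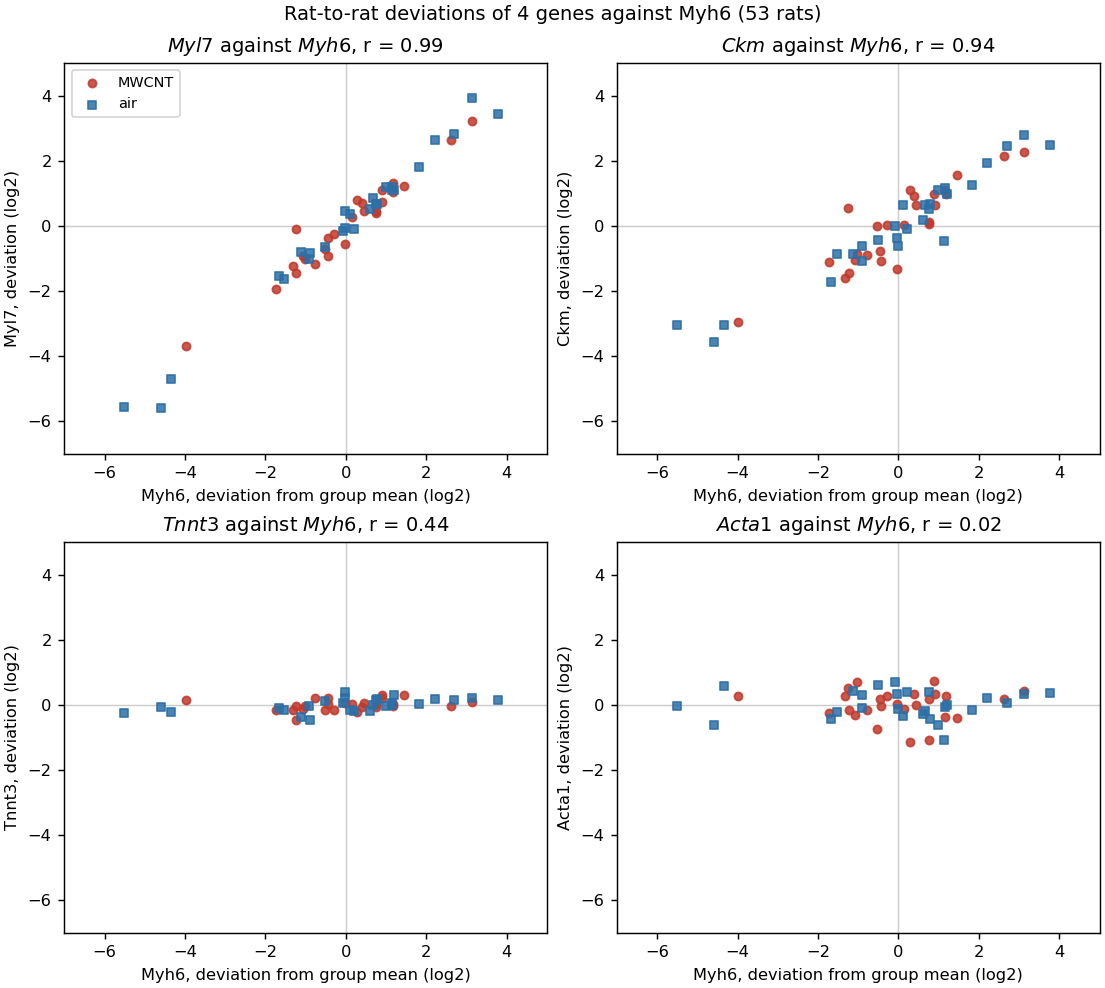
Deviation of Myl7, Ckm, Tnnt3 and Acta1 from the group mean (vertical axis, log2) against that of Myh6 (horizontal axis, log2), 1 point for each rat, MWCNT rats as red circles and air rats as blue squares. Myl7 (r = 0.99) and Ckm (r = 0.94) rise with Myh6 across exposed and air rats, and Tnnt3 (r = 0.44) and Acta1 (r = 0.02) stay nearly flat.

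Genes whose rat-to-rat pattern was most like each member were also listed. For Myh6 the 5 closest genes over the 53 rats were Mybpc3 (r = 0.95), the cardiac myosin-binding protein, Csrp3 (0.94), a Z-disc protein, Myl4 (0.93), the atrial essential light chain, Sln (0.91), a regulator of the calcium pump, and Myh7 (0.91), the slow cardiac myosin. The lists for Myl7, Tnnt2, Mb and Ckm drew on these and on Tnnc1, the cardiac and slow troponin C, at r of 0.90 to 0.96. For Tnni3 and Actc1 they also held Cox6a2, Myom2, Fabp3 and Casq2, at r of 0.92 to 0.95. The closest gene to Tnnt3 was Fyb at r = 0.65 and to Acta1 Frmd7 at r = 0.52, and none of the 5 closest to either was a gene of the muscle lists. Myh6 and Myh7 are close in sequence, as are the actins Acta1, Actc1, Acta2 and Actg2, and the counting could have split or dropped reads they share.

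The correlation of other muscle genes with Myh6 was then listed, with no test between lists. Over the other genes tested the median r with Myh6 was 0.02 and 0.156% of them reached 0.8. In the list of other cardiac genes, 20 of 26 were tested, the median r with Myh6 was 0.82 and 11 reached 0.8, with Myh7b at 0.05 and Gja5 at -0.24. Among genes shared by heart and skeletal muscle, 18 of 23 were tested, the median r was 0.80 and 10 reached 0.8. In the list of other skeletal genes, 12 of 29 were tested, the median r was 0.10 and none reached 0.8, with Pgam2, the muscle phosphoglycerate mutase, highest at 0.78, Eno3, the muscle enolase, at 0.62 and Pygm at 0.50. Of 13 smooth muscle genes the median r was 0.22, and the highest was Pln, which is in the cardiac list as well, at 0.81.

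**Figure D4:**
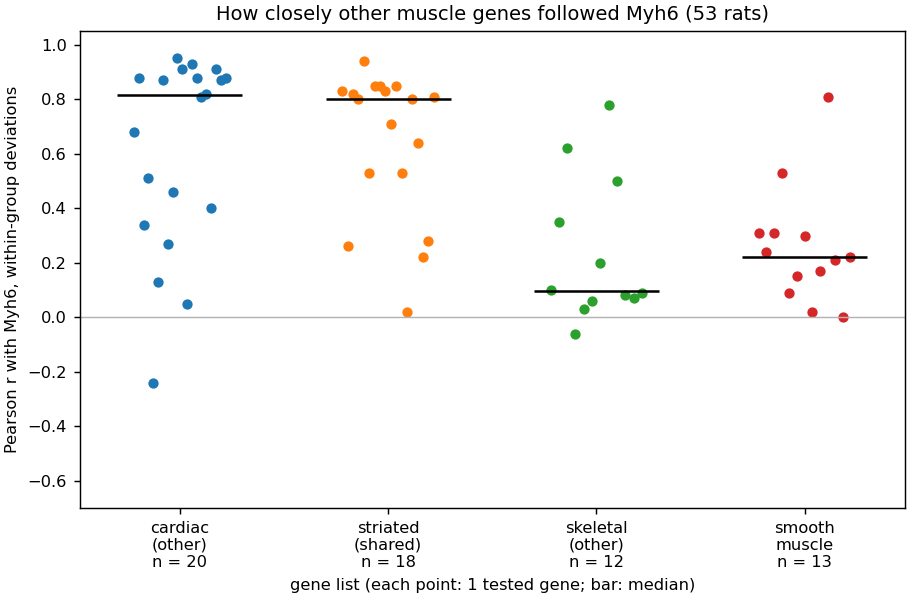
Pearson r with Myh6 over 53 rats (vertical axis) of each tested gene in 4 lists (horizontal axis), 1 point for each gene and a bar at the list median. The medians are 0.82 for other cardiac genes, 0.80 for shared striated genes, 0.10 for other skeletal genes and 0.22 for smooth muscle genes.

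Several defining genes of heart and of fast skeletal muscle were near 0. Myl2, the ventricular light chain, had 19 counts over all 53 libraries and Bmp10, made by atrial muscle, had 1. Myh4, the fast myosin of skeletal fibres, had 6 counts, Myl1 26 and Pvalb 97, and Myod1 and Myot had 0. Other genes of the skeletal list were read in every rat, with medians of 107 CPM for Neb and 28.1 CPM for Pygm. In the cardiac list the same held for Gja5 (median 116 CPM, r = -0.24 with Myh6) and Ankrd1 (median 21.2 CPM, r = 0.68).

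The summed levels of 14 lists, 5 of them the lists of muscle and matrix genes, were set against Myh6, Acta1 and Tnnt3, which gave 42 relations. Myh6 had r = 0.72 with the sum of the cardiac list and 0.78 with that of the shared striated list. The adjusted permutation p was 0.00021 for both. The sum of the skeletal list had r = 0.59 and rho = 0.65 with Myh6, with an adjusted permutation p of 0.00056 for r. Without the 2 farthest rats r was 0.64, and within sets it ran from 0.24 to 0.80. Neb, with a median of 107 CPM and r = 0.20 with Myh6, made up most of the skeletal sum. Tnnt3 had r = 0.54 with the cardiac sum and 0.51 with the skeletal sum (adjusted permutation p of 0.004 and 0.0048). Among lists of other tissues, the thymus and lymph node list had r = 0.50 and rho = 0.43 with Myh6, with an adjusted permutation p of 0.017 for r. Without the 2 farthest rats r was 0.45, and within sets it ran from -0.01 to 0.83. All 7 genes of that list were in the table and 3 were tested, and Ccl21, at a median of 138 CPM, made up most of its sum, which was 100 to 200 CPM over the exposed groups and 119 to 238 CPM over the air groups. Its thymus genes were near 0, with 7 counts for Rag2 and 33 for Ptcra. The part of the thymus and lymph node list in the spread of Myh6 was not tested. Myh6 had r of 0.01 with the adipose list, -0.08 with liver, -0.14 with mesothelium and -0.07 with lung, with adjusted permutation p of 0.79 or more.

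Exposure was compared with air within each set by edgeR's quasi-likelihood test, with p-values adjusted over all genes tested, and a gene was called at an adjusted p under 0.05. In set 180, 2 of 9 members rose, Acta1 and Tnnt3, and none fell, where 22.9% of all genes tested were called, 12% higher and 10.9% lower. In set 090, 1 of 9 rose, Acta1, where 11.1% of all genes were called and 6.82% higher. No member was called in set 045 (5.41% of all genes), set 022 (6.8%) or set 011 (0.025%). The group of 7 had no call in any set.

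Acta1 encodes the actin of skeletal thin filaments. It had 2.1, 0.958, 0.932, 1.01 and 1.41 CPM in MWCNT_180 rats, and in air_180 rats a lowest value of 0.204, a median of 0.420 and a highest of 0.492 CPM. In counts these were 9 to 17 in the exposed rats and 2 to 6 in the air rats. All 5 exposed rats were above all 6 air rats, which 7.8% of genes tested also showed in this set. The fold change was 3.19, or 1.67 ± 0.33 (SE) on the log2 scale, with an edgeR adjusted p of 9.9e-05. Acta1 passed the filter on low counts only through exposed rats: 11 of 26 exposed and 0 of 27 air libraries reached its limit of 0.891 CPM. With no filter the edgeR adjusted p in set 180 was 0.00017.

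In MWCNT_090 rats Acta1 stood at 0.802, 1.37, 0.994 and 1.34 CPM, and air_090 ran from 0.299 through 0.407 to 0.628 CPM. Again no rat overlapped, as in 8.82% of genes tested in the same direction. The log2 fold change was 1.24 ± 0.34 (SE), with an edgeR adjusted p of 0.009. With no filter the edgeR adjusted p in set 090 was 0.015. MWCNT_045 rats ran from 0.293 through 0.821 to 1.31 CPM and the 3 air_045 rats had 0.293, 0.594 and 0.177 CPM. These groups overlapped, and the log2 fold change of 1.16 ± 0.41 (SE) missed the threshold with an edgeR adjusted p of 0.082. Leaving out each of the 9 libraries gave 0.875 to 1.71 with edgeR adjusted p of 0.034 to 0.39, and it passed only without MWCNT_045 replicate 6, at 1.34.

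In sets 022 and 011 no difference of Acta1 passed the test. MWCNT_022 ran from 0.262 through 0.765 to 0.997 CPM and air_022 from 0.168 through 0.526 to 0.735 CPM, a log2 fold change of 0.48 ± 0.32 (SE). MWCNT_011 rats had 0.871, 0.331, 0.764, 0.711 and 0.550 CPM and air_011 ran from 0.338 through 0.457 to 0.801 CPM, a log2 fold change of 0.36 ± 0.34 (SE). The groups overlapped in both sets, and the edgeR adjusted p were 0.41 and 0.999. No member was free of overlap in set 022, where 2.37% of genes tested were, or in set 011, where 0.694% were.

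Tnnt3 makes the troponin T of fast skeletal fibres. MWCNT_180 rats had 14.2, 11.2, 12.3, 10.8 and 12.3 CPM, and air_180 ran from 6.72 through 9.63 to 12.3 CPM. The groups overlapped at the level of a single air rat, replicate 1, and the log2 fold change was 0.34 ± 0.12 (SE), a fold of 1.26, with an edgeR adjusted p of 0.034. This call was lost when any of 6 single libraries was left out (air_180 replicate 4, 5 or 6, or MWCNT_180 replicate 2, 4 or 6), with edgeR adjusted p of 0.061 to 0.12.

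In set 090 Tnnt3 stood at 15.9, 11.5, 12.9 and 11.5 CPM in MWCNT_090 rats, and air_090 ran from 7.80 through 10.6 to 11.7 CPM. The log2 fold change of 0.31 ± 0.12 (SE) did not pass, with an edgeR adjusted p of 0.10. In set 045 the MWCNT rats ran from 9.22 through 10.6 to 12.3 CPM and the air rats had 8.41, 8.91 and 8.40 CPM. No rat overlapped there, as in 9.23% of genes tested in the same direction, but the log2 fold change of 0.29 ± 0.14 (SE) did not pass, with an edgeR adjusted p of 0.26. The left-out libraries air_045 replicates 3 and 6 had 13.7 and 10.5 CPM. In a fit of 57 libraries with both included, the log2 fold change was 0.09 (edgeR adjusted p = 0.74). In sets 022 and 011 the log2 fold changes were -0.12 ± 0.11 and -0.14 ± 0.12 (SE).

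Across doses, a linear change of the exposure effect per doubling of dose was called for Acta1 (0.34 ± 0.11, SE, edgeR adjusted p = 0.029) and for Tnnt3 (0.14 ± 0.04, SE, edgeR adjusted p = 0.012). Among all genes tested 10.7% were called for this slope and 5.58% upward. Acta1 was among the genes tested only through exposed rats, as 11 of 26 exposed and 0 of 27 air libraries reached the filter's limit. None of the group of 7 was called, with slopes between -0.11 and 0.09 and edgeR adjusted p of 0.88 or more. The call of Acta1 was lost without air_011 replicate 5, air_011 replicate 6, MWCNT_011 replicate 3 or MWCNT_180 replicate 2, with edgeR adjusted p of 0.051 to 0.068. Testing whether the exposure effect differed between sets called 4.92% of genes but no member, with edgeR adjusted p of 0.10 for Tnnt3 and 0.27 for Acta1. The test among the 5 air groups called 7.11% of genes and no member.

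**Figure D5:**
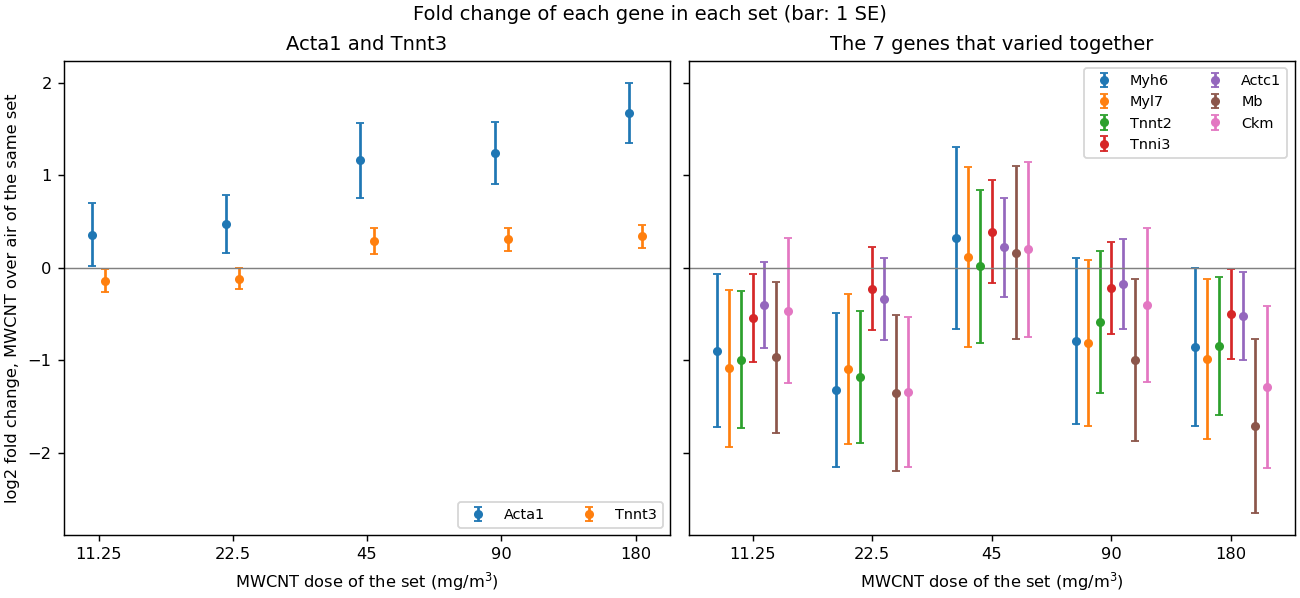
Log2 fold change of MWCNT over air rats of the same set (vertical axis) by MWCNT dose of the set in mg/m3 (horizontal axis), with bars of 1 SE, for Acta1 and Tnnt3 on the left and the other 7 genes on the right. Acta1 is 1.16 or higher at 45 mg/m3 and above, and the 7 genes have SE up to 0.98.

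The group of 7 had negative log2 fold changes in set 180, Mb at -1.71 ± 0.94, Ckm at -1.29 ± 0.88, Myl7 at -0.98 ± 0.86, Myh6 at -0.86 ± 0.86, Tnnt2 at -0.85 ± 0.75, Actc1 at -0.52 ± 0.47 and Tnni3 at -0.50 ± 0.48 (SE). Their edgeR adjusted p ran from 0.21 to 0.53. As the genes move together within rats, they do not count as 7 separate observations. The median of the 7 was -0.90 in set 011, -1.18 in set 022, 0.20 in set 045, -0.58 in set 090 and -0.86 in set 180, beside medians over all genes tested of -0.0066 to 0.0065. All 7 edgeR values were negative in sets 011, 022, 090 and 180 and positive in set 045. In set 022 the sign rested on the scale for every gene of the 7 except Ckm, as described below. Leaving out 1 library moved the median of the 7 between -1.58 and -0.60 in set 011, -1.44 and -0.61 in set 022, -0.23 and 0.95 in set 045, -1.19 and -0.31 in set 090, and -1.16 and -0.37 in set 180. Its sign in set 045 turned without MWCNT_045 replicate 5, MWCNT_045 replicate 6 or air_045 replicate 1. The SE of 0.44 to 0.98 in all sets means that differences of the size of the fold changes seen could not be told from the spread between rats.

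Mb stores oxygen in striated muscle and had the most negative value. It stood at 1.48, 0.319, 1.24, 0.406 and 1.11 CPM in MWCNT_180 rats, and in air_180 rats the lowest was 0, the median 0.901 and the highest 8.84 CPM. Ckm, which regenerates ATP in muscle, had 1.61, 0.319, 1.76, 0.304 and 0.807 CPM in MWCNT_180 rats, against a lowest of 0, a median of 1.03 and a highest of 6.46 CPM in air_180 rats. In both genes the air rats spanned the whole range of the exposed rats, and only air_180 replicates 2 and 3 lay above every exposed rat.

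The sign rested on the scale for Myh6 and Myl7 in set 180 and for the group of 7 except Ckm in set 022. In set 180 Myh6 and Myl7 were lower in exposed rats on mean counts. On mean log2(CPM + 0.1) Myh6 was 0.01 and Myl7 0.09 higher there, with exact two-sided permutation p of 0.991 and 0.968. In set 022 every gene of the group of 7 except Ckm was higher in exposed rats on mean log2(CPM + 0.1). The air means there include air_022 replicates 1 and 4, in which Myh6 was under 1 CPM. The means of Myh6 were 29 ± 19.3 CPM in MWCNT_180 (SD, n = 5) and 52.1 ± 57 CPM in air_180 (SD, n = 6). In set 022 the SD of log2(CPM + 0.1) of Myh6 was 0.86 in MWCNT rats and 3.95 in air rats, among them the 2 air rats with 4 and 1 counts, in set 011 it was 2.93 in MWCNT rats and 1.0 in air rats, and in set 180 it was 1.31 in MWCNT rats and 2.62 in air rats. In set 045 it was 0.789 in MWCNT rats and 0.953 in air rats, and in set 090 1.15 in MWCNT rats and 1.11 in air rats. The wider group was the exposed group in sets 011 and 090 and the air group in sets 022, 045 and 180.

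Whether skeletal and cardiac genes moved apart was asked within each rat by log2 ratios of CPM with 0.1 added to each. The log2 ratio of Acta1 to Actc1 was -4.18 ± 0.57 in MWCNT_180 and -5.91 ± 1.03 in air_180 (SD, n = 5 and 6). Exposed minus air was 0.80 in set 011, 0.40 in set 022, 0.80 in set 045, 1.21 in set 090 and 1.72 in set 180. The value in set 180 had an exact two-sided permutation p of 0.017, which was 0.087 after adjustment over the 5 sets, and no set passed. The smallest p these group sizes allow is 0.0022 in sets 011, 022 and 180, 0.0048 in set 090 and 0.012 in set 045. The ratio includes the wide spread of Actc1, whose own group ranges overlapped in every set.

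The ratio of Ckm, a striated muscle gene listed here as skeletal, to Myh6 gave no difference that passed with all analysed rats. Exposed minus air was 0.99 in set 011, -0.79 in set 022, -0.21 in set 045, 0.28 in set 090 and -0.47 in set 180. The value in set 011, with a mean of -3.79 ± 0.77 in MWCNT_011 and -4.77 ± 0.29 in air_011 (SD, n = 5 and 6), had an exact two-sided permutation p of 0.011 and 0.054 after adjustment over the 5 sets. In 1 of the 5 exposed rats, replicate 4, there were 0 counts of Ckm and 6 of Myh6, so its ratio rests on the added 0.1 CPM. The same holds for air_022 replicates 1 and 4, with 0 counts of Ckm and ratios of -2.09 and -0.92. The other air_022 rats had ratios from -4.98 to -3.72, so the value in set 022 rests largely on the added 0.1 CPM. In set 180 air_180 replicate 5 had 0 counts of Ckm and a ratio of -3.19. The difference in set 011 passed when MWCNT_011 replicate 1 (1.2), MWCNT_011 replicate 5 (1.11) or air_011 replicate 3 (1.09) was left out, with adjusted exact permutation p of 0.048, 0.048 and 0.04.

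The other genes of the muscle lists were counted in each set. The genes named here are those called with the largest fold changes in each list. In set 180, where 12% of all genes tested were called higher and 10.9% lower, 3 of 20 tested genes of the cardiac list fell and none rose: Cox8b, a heart and skeletal subunit of cytochrome oxidase, at -1.0 ± 0.25, Kcnj5, an atrial potassium channel, at -0.48 ± 0.16, and Myh7b at -0.30 ± 0.11 (log2, SE; edgeR adjusted p of 0.0023, 0.027 and 0.048). None of the list was called in the other sets. Its median log2 fold change in set 180 was -0.54. These 3 did not follow Myh6 closely, with r of 0.51, 0.46 and 0.05. Adipose markers were lower in the same set: 3 of 5 tested fell (Cidec at -1.92 ± 0.27, Cfd at -0.67 ± 0.14 and Lipe at -0.28 ± 0.08, with edgeR adjusted p of 1.5e-07, 0.00034 and 0.0046), and the list of 9 summed to 141 to 153 CPM in MWCNT_180 rats and 172 to 193 CPM in air_180 rats. Over the 53 libraries the counts of this list were 1 for Ucp1, 25 for Plin1, 166 for Adipoq, 200 for Lep and 895 for Cidec. They were 1443 for Cidea, 5388 for Cfd, 14542 for Fabp4 and 77623 for Lipe. The part of the adipose list in the change of Cox8b, Kcnj5 or Myh7b was not tested. Of the 18 shared striated genes Trim63, a muscle ubiquitin ligase, fell in set 180 (-0.43 ± 0.13, edgeR adjusted p = 0.013) and in set 090 (-0.45 ± 0.14, edgeR adjusted p = 0.024), and none rose.

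In the skeletal list 2 of 12 tested genes rose and 3 fell in set 180, beside the same 12% and 10.9% of all genes. Tnni2, the fast skeletal inhibitory troponin, rose by a log2 fold change of 1.56 ± 0.46 (SE, edgeR adjusted p = 0.01), at 0.0872 to 1.13 CPM over all rats, and Mybpc2, the fast myosin-binding protein, by 0.34 ± 0.11 (edgeR adjusted p = 0.025). Tnni2 had 241 counts over the 53 libraries and a median of 0.309 CPM, under the filter's limit of 0.891 CPM. It was therefore tested only through the rats where it was high, and whether those were exposed or air rats is not shown here. Myoz1, a Z-disc protein, fell by 0.54 and Pygm, the muscle glycogen phosphorylase, by 0.31 on the log2 scale, with edgeR adjusted p of 0.016 and 0.042. Neb, named as the remaining call of the 5, was at -0.25 ± 0.08 (edgeR adjusted p = 0.025). Tnni2 had r of 0.37 with Acta1 and 0.03 with Tnnt3. In set 090 Pygm alone of the list was called (-0.35 ± 0.12, edgeR adjusted p = 0.048).

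Smooth muscle actins, close in sequence to Acta1, were compared with it. Acta2, the vascular smooth muscle actin, rose in set 022 (0.33 ± 0.11, edgeR adjusted p = 0.046) and had 0.29 ± 0.11 in set 180, which missed the threshold (edgeR adjusted p = 0.057). Actg2, the enteric smooth muscle actin, rose in set 022 (0.57 ± 0.14, edgeR adjusted p = 0.0074) and set 090 (0.50 ± 0.16, edgeR adjusted p = 0.029). Over the 53 libraries 78396 reads were counted for Acta2, 22328 for Actg2 and 406 for Acta1, totals that are not per length. Within groups Acta1 had r of 0.12 with Acta2 and 0.18 with Actg2. How many reads of Acta1 came from these copies was not tested. Smtn, smoothelin of contractile smooth muscle, fell in sets 180 and 045 (-0.26 ± 0.06 and -0.23 ± 0.07, edgeR adjusted p of 0.00089 and 0.033), and the remaining calls among the 13 smooth muscle genes were those of Acta2 and Actg2.

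Genes of matrix-making fibroblasts were set beside Acta1. Of 9 tested, 3 rose and 1 fell in set 180, where 12% and 10.9% of all genes did: Cthrc1 at 1.06 ± 0.14, Timp1, an inhibitor of matrix proteases, at 0.86 ± 0.11, Fn1, fibronectin, at 0.34 ± 0.09, and Postn, periostin, at -0.30 ± 0.04 (log2, SE; edgeR adjusted p of 4.4e-08, 5e-08, 0.0049 and 1.1e-07). Within groups the summed list had r of -0.03 and rho of 0.03 with Acta1, with an adjusted permutation p of 0.93, and r of 0.44 and rho of 0.37 with Tnnt3, with an adjusted permutation p of 0.026. In set 180 its summed level was 5800 to 6300 CPM in MWCNT rats and 5290 to 5610 CPM in air rats, with no overlap. In set 090 it was 6110 to 6530 CPM in MWCNT rats and 5650 to 6480 CPM in air rats. Its part in the change of Acta1 or Tnnt3 was not tested.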

How the data were processed

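Raw counts per gene symbol were deposited by the authors for 60 lung libraries, from a stranded mRNA kit per the labels' protocols. The submitters' processing notes name bcl2fastq 2.19, Trimmomatic 0.35, HISAT2 2.1.0, Cufflinks, SAMtools 1.8 and HTSeq 0.11.2. The genome build is not given in the sources used here. The table held 27 rows with a spreadsheet date in place of a symbol.

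Groups came from the labels, and each library is a separate animal there. The members and gene lists were chosen with earlier results of these data known. In R 4.3.3, edgeR 4.0.16 kept genes by filterByExpr (minimum count 10), scaled by TMM and fitted the 10 groups in a single robust quasi-likelihood model. Contrasts compared MWCNT with air within each set. P-values were adjusted by Benjamini-Hochberg over the 15995 genes tested. The SE is the log2 fold change divided by the square root of F.

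Spread, correlations and ratios used log2(CPM + 0.1) in Python 3.11.15 with SciPy 1.17.1. Correlations were tested by permuting rats within groups, and ratios by exact permutation. Named genes were all members, up to 4 called genes with the largest fold change for each list and set, and the 5 genes most correlated with each member. Alternatives used limma 3.58.1 and DESeq2 1.42.0, other filters and sample choices, and each library left out. The model was tested on simulated data. No 2 libraries of a group agreed within sampling noise.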

Additional observations from a re-analysis of the deposited data

Results flagged for a closer look

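Tnni3 stood at 12.8 CPM in MWCNT_022 replicate 6, apart from the other 5 rats of its group, whose values began at 8.11 CPM. Of 81 combinations of a gene and a group that were checked for a rat apart from the rest, this was the only one, and chance flags about 1 in 20 groups.

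In libraries left out of the comparisons, several members stood above the highest analysed air rat. In air_045 replicate 3 this held for Myl7 at 100.6 CPM (highest analysed air rat 72.2), Tnnt2 at 32.8 CPM (24.4), Tnni3 at 35.6 CPM (27.1), Actc1 at 87.8 CPM (78.9), Mb at 12.9 CPM (8.84) and Tnnt3 at 13.7 CPM (12.3). In the same library the thymus and lymph node markers summed to 264 CPM. In MWCNT_180 replicate 1 it held for Tnnt3 at 14.7 CPM (12.3) and Acta1 at 1.16 CPM (0.801).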

How the results depend on the processing

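Acta1 stayed called in set 180 wherever it was tested, and without each library its log2 fold change there was 1.44 to 1.76. Under the stricter filter and with the set fitted alone it had too few counts to be tested. Tnnt3 in set 180 missed the threshold without the low-count filter, with the set fitted alone, with all 60 libraries and without any of 6 single libraries. Acta1 has so few counts that its smaller differences are limited by depth. The cause of the changes below was not tested.

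With all 60 libraries, genes called numbered 614 in set 180, 5122 in set 090, 163 in set 022, 0 in set 011, 2415 for the difference among sets and 99 for the slope, against 3660, 1775, 1087, 4, 787 and 1704. Members called were 1 in set 180 and 0 for the slope. Tnnt3 in set 090 turned to -0.12, and the Acta1 to Actc1 ratio was 1.63 in set 180, 2.41 in set 090 and -0.173 in set 045. The correlations with the group of 7 became 0.46 to 0.91 for Tnnt3 and 0.37 to 0.74 for Acta1, and those within the group 0.73 to 0.98.

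Without the filter 1 member was called in set 180. The stricter filter left 1 in set 180, 0 in set 090 and 1 for the slope, and linear dose left 1 for the slope. With limma voom, genes called were 3189 in set 090, 1857 in set 045, 1891 for the difference among sets, 3669 among air groups and 2593 for the slope, with 2 members in set 090, and Tnnt3 in set 022 was 0.00616. Fitted alone, set 180 had 0 members called, set 090 had 0, and set 022 had 341 genes. With all air rats as a single control, 2 members were called in set 090 and 1 in set 045, and genes called were 2710 in set 045, 3491 in set 022 and 269 in set 011. On the log2(CPM + 0.1) scale of the exact permutation test, Myh6 was 0.0119 and Myl7 0.0869 in set 180.

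Leaving out each library gave 377 to 811 genes in set 045, 735 to 2919 in set 022, 2 to 5 in set 011 and 540 to 2078 among air groups. Members called ranged from 1 to 2 in set 180, 0 to 1 in set 045, 1 to 2 for the slope and 0 to 1 for the difference among sets. The Ckm to Myh6 difference in set 011 ranged from 0.729 to 1.2. No paired analysis was possible because replicate numbers do not tie exposed to air rats.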
